A study of Mus musculus with 6 samples.

Results

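The p53 gene Trp53 and 9 of its best-known direct targets were followed in mouse embryonic stem cells (mESCs) that had lost RNA polymerase II (Pol II). The members were taken by gene symbol from the deposited count tables, and all 10 (Trp53, Mdm2, Cdkn1a, Ccng1, Btg2, Bax, Bbc3, Trp53inp1, Phlda3 and Zmat3) were found among the 39017 genes listed. PolyA RNA-Seq was available for 6 libraries in 3 groups of 2. Untreated and auxin libraries came from the Pol II degron line, V6.5 mESCs in which the largest Pol II subunit, RPB1, carries a mini auxin-inducible degron with GFP on its gene copies and in which doxycycline switches on the plant receptor OsTIR1 from the Rosa26 locus. Both of these groups were given doxycycline at 1 μg/ml for 12 h, and the auxin group was also given indole-3-acetic acid at 500 μM for 6 h, which marks RPB1 for destruction. Wild-type libraries came from V6.5 mESCs with unmodified Pol II, and whether they were given doxycycline is not stated in the sources used here.

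Several features limit these groups as models. The degron cells are a clonal line that was picked for its degradation, so that the clone and the inserted tag cannot be told apart in the comparison with wild-type cells. All cells were grown on irradiated mouse embryonic fibroblasts, and the methods place the harvest after 2 passages of the feeders without stating how much feeder RNA was left. For wild-type cells the extraction text in the records speaks of retinas. Total counts ran from 14094022 to 15358714 per library. The 10 mESC markers examined (Pou5f1, Sox2, Nanog and others) summed to 3695 to 7461 counts per 1000000 counts (CPM), and 10 retina markers summed to 5.03 to 9.29 CPM, with the photoreceptor genes Crx and Rcvrn at 0 counts in all 6 libraries. The methods call the replicates of the sequencing assays biological, but nothing states that those of the RNA libraries were separate cultures, so that p-values measure only the spread between these libraries, which may be technical.

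p53 is a transcription factor that is made continuously and destroyed continuously. The ubiquitin ligase Mdm2, itself a p53 target, carries out that destruction, and stress to DNA or to the ribosome interrupts it. Stabilized p53 switches on genes for cell cycle arrest, apoptosis and DNA repair, and many of these messages are short-lived. Mouse ES cells express Trp53 strongly and lack a firm G1 arrest. Protein levels and p53 activity were not measured here, and the data are levels of polyadenylated RNA. In bulk RNA, fewer cells of a type and less RNA per cell cannot be told apart.

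p53 binds pairs of a 10-base element, in which 3 purines, a C, 2 bases that are each A or T, a G and 3 pyrimidines follow each other. This element reads the same way on both strands. RefSeq promoter windows (GRCm38.p6, the mm10 build, 250 bases before to 50 after the transcript start) were given for 8 members, and windows of 5 of these held an exact element, as did 8.36% of all 32851 windows. Pairs with at most 1 mismatch and a spacer of up to 13 bases were in the windows of Cdkn1a and Ccng1 and in 0.627% of all windows. Pairs with at most 2 mismatches were in 4.09% of all windows and, among the members, also in that of Bax. The stretches that hold the matches are shown because p53 is known for binding such letters near its targets, 5′ to 3′ on the strand of the gene, with the elements in capitals. The windows searched of Btg2, Bbc3 and Phlda3 held no match, which says only that these letters are not in them.
Cdkn1a: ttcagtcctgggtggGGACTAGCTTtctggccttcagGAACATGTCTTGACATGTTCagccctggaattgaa
Ccng1: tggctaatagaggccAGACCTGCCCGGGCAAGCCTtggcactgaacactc
Bax: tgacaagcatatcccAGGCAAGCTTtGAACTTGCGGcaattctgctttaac
Mdm2: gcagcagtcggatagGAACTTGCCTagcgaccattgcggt
Trp53: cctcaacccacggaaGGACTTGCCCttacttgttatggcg

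The Cdkn1a stretch lies at chr17:29090891-29090962 on the plus strand, and its elements run from 73 to 32 bases before the transcript start. It held a pair without mismatch at a spacer of 12 bases and, overlapping it, a pair with 1 mismatch and no spacer. The Ccng1 stretch (chr11:40755447-40755496, minus strand) held a pair with 1 mismatch from 195 to 176 bases before the start. The Bax stretch (chr7:45467064-45467114, minus strand) held a pair with 2 mismatches and a spacer of 1 base. Mdm2 (chr10:117710920-117710959, minus strand) and Trp53 (chr11:69580269-69580308, plus strand) held a single element. Binding of p53 at these stretches was not measured in the RNA data.

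All 10 members were expressed. In CPM per kilobase of merged exon, which allows comparison between genes, Bax was highest in untreated cells at 202 ± 26.1 (SD, n = 2). Ccng1 followed at 135 ± 18.6, Phlda3 at 71.1 ± 4.40, and Trp53 at 62.0 ± 1.41. Bbc3 (41.1 ± 2.19) stood above Mdm2 (35.8 ± 4.30), Trp53inp1 (33.8 ± 2.82) and Cdkn1a (32.6 ± 4.73), and the libraries of each neighbouring pair among these last 3 overlapped. Zmat3 (16.4 ± 0.329) and Btg2 (14.4 ± 3.22) were lowest, with overlapping libraries. Bax and Ccng1 also led in auxin and wild-type cells, and the lowest pair was again Zmat3 and Btg2 in both.

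The mature RNA of p53 and its core targets was measured relative to all other polyadenylated RNA. After 6 h of auxin it differed from untreated cells by less than the test could call, where 4.20% of all genes were called. Wild-type and untreated degron cells differed in 6 of the 10, close to the 60.6% of all genes called in that comparison. Trp53 itself, on chromosome 11 (69580359 to 69591873, plus strand, mm10), was measured at 246.7 and 254.7 CPM in untreated cells, 229.7 and 245.5 in auxin cells and 254.8 and 250.9 in wild-type cells. The auxin libraries lay below both untreated libraries, and the wild-type libraries overlapped the untreated ones. The difference between auxin and untreated cells was −0.06 on the log2 scale (95% confidence interval −0.21 to 0.09), and between wild-type and untreated cells it was 0.00 (−0.12 to 0.13). Neither was called by edgeR's quasi-likelihood test (Benjamini-Hochberg adjusted p = 0.696 and 0.950). Of the 100-base stretches in Trp53 exons, 0.16% also occurred in the pseudogene Trp53-ps.

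**Figure D1:**
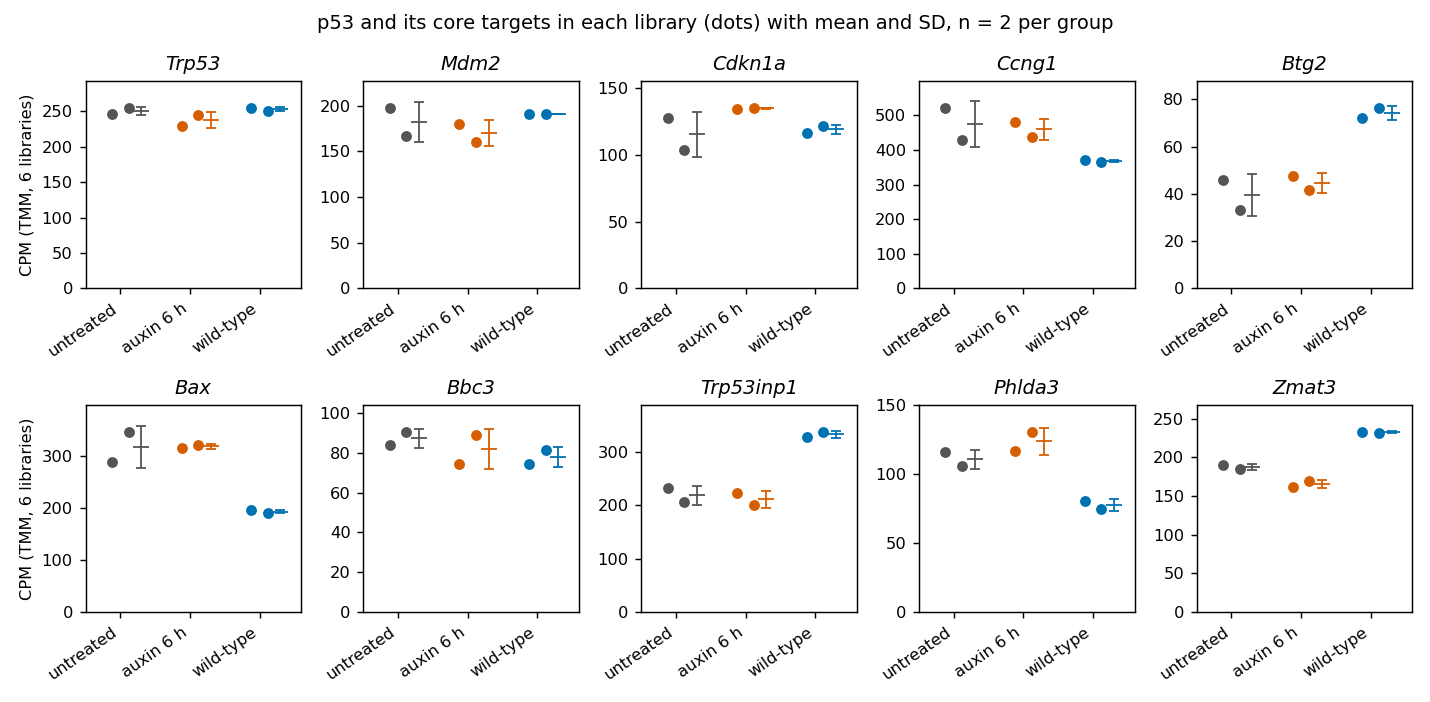
CPM after TMM scaling over the 6 libraries (y axes, from 0) for each member in untreated, auxin and wild-type cells (x axes). Dots are libraries, and the bar beside them is the mean with its SD (n = 2). Auxin and untreated dots overlap or lie close together in each panel, while Btg2, Trp53inp1 and Zmat3 are higher and Bax, Phlda3 and Ccng1 lower in wild-type cells on this scaling (all 10 are lower when libraries are scaled to the mitochondrial mRNAs).

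The members that feed back on p53 came next. Mdm2 was at 197.5 and 166.6 CPM in untreated cells, 179.8 and 159.9 in auxin cells and 191.2 and 190.9 in wild-type cells. All 6 values fell between 159.9 and 197.5 CPM, and the groups overlapped in both comparisons. Its difference was −0.08 (−0.27 to 0.11) in the auxin comparison and 0.06 (−0.11 to 0.23) in the wild-type comparison, on the log2 scale. Ccng1, which encodes cyclin G1, a partner of protein phosphatase 2A that acts on Mdm2, was at 521.1 and 428.6 CPM in untreated cells, 481.2 and 438.6 in auxin cells, and 369.7 and 366.3 in wild-type cells. Its auxin values lay inside the span of the untreated libraries, and both wild-type values lay below it. In log2 terms Ccng1 differed by −0.03 (−0.23 to 0.17) after auxin and was lower by −0.38 (SE 0.08) in wild-type cells (edgeR, Benjamini-Hochberg adjusted p = 0.00210). On chromosomes 10 (Mdm2, 117688875 to 117710758) and 11 (Ccng1, 40748552 to 40755311), both genes lie on the minus strand, and no annotated exon of another gene overlapped theirs.

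The arrest genes were the members with the largest positive differences after auxin, but neither passed the test. Cdkn1a, on chromosome 17 (29090976 to 29100727, plus strand), encodes p21, the inhibitor of cyclin-dependent kinases through which p53 halts the cycle, and it was measured at 127.5 and 103.8 CPM in untreated cells, 134.5 and 135.1 in auxin cells and 116.7 and 121.6 in wild-type cells. Both auxin libraries lay above both untreated libraries, while the wild-type libraries lay between the untreated ones. The auxin difference was 0.24 on the log2 scale (0.05 to 0.43), a fold of 1.18, with an adjusted p of 0.138 (edgeR, Benjamini-Hochberg). With the replicate number as a block Cdkn1a was called at 0.25 (edgeR adjusted p = 0.00485), although nothing states that these numbers pair libraries. The size of the difference depended on untreated replicate 1, the untreated library with more Cdkn1a. Leaving that library out gave a log2 difference of 0.39 in the fit without a block. With 1 untreated library left, this fit and each like it below takes the spread from the other group's pair (134.5 and 135.1 CPM for Cdkn1a) and from all genes, and assumes that the lone library varies alike. The wild-type difference was 0.04 (−0.16 to 0.23), and without untreated replicate 1 it was 0.19 (edgeR, Benjamini-Hochberg adjusted p = 0.0185). Mdm2 was called in the wild-type comparison as well without that library, at 0.19 with an adjusted p of 0.00583 (edgeR). An annotated gene on the opposite strand, AC167363.2, overlaps Cdkn1a exons, and 5.33% of the 100-base stretches of Cdkn1a occurred in other genes, so that part of its counts is uncertain where strand was not used.

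Btg2 encodes an antiproliferative adaptor that brings mRNAs to the CCR4-NOT deadenylase, and its locus is on chromosome 1 (134075170 to 134079120, minus strand). It was the lowest member in CPM, at 45.76 and 33.28 in untreated cells, 47.48 and 41.69 in auxin cells, and 72.31 and 76.32 in wild-type cells. Untreated and auxin libraries overlapped, and both wild-type libraries lay well above all 4 degron libraries. The auxin difference was 0.19 (−0.08 to 0.46) on the log2 scale, and it became 0.44 (edgeR, Benjamini-Hochberg adjusted p = 0.000503) without untreated replicate 1, where the auxin pair gives the spread, and −0.02 without untreated replicate 2. In wild-type cells Btg2 was higher by 0.90 (SE 0.12, adjusted p = 4.44e-05 by edgeR), a fold of 1.87 and the largest difference of any member on this scaling.

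The apoptosis members Bax and Bbc3 were both lower in wild-type than in untreated libraries, and Bax alone passed the test. Bax, the pore-forming protein of the mitochondrial outer membrane, was measured at 289.3 and 347.6 CPM in untreated cells, 315.9 and 322.4 in auxin cells and 195.8 and 191.7 in wild-type cells. The auxin libraries fell between the untreated ones, with a log2 difference of 0.02 (−0.16 to 0.20). Wild-type Bax lay below every degron library, by −0.72 (SE 0.08, adjusted p = 1.40e-05 by edgeR). Bax (chromosome 7, 45461697 to 45466898, minus strand) shares 5.33% of its 100-base stretches with Gm45808, an overlapping gene on the same strand. Counts from these stretches are uncertain, and their share of all Bax counts was not measured. Bbc3 encodes PUMA, a BH3-only protein that releases Bax and its relatives from their inhibitors. Bbc3, also on chromosome 7 (16308393 to 16318205, plus strand), was at 83.99 and 90.57 CPM in untreated cells, 74.57 and 88.88 in auxin cells and 74.42 and 81.41 in wild-type cells. Its wild-type libraries were below both untreated ones, but the difference of −0.17 (−0.33 to −0.01) did not pass the test (edgeR, Benjamini-Hochberg adjusted p = 0.0640). It passed when libraries were scaled by their totals alone (−0.23, adjusted p = 0.0187), with a filter of at least 10 counts in every library (−0.19, 0.0423) and without untreated replicate 1 (−0.23, 0.0145), all by edgeR.

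Trp53inp1 encodes a stress protein that promotes p53 phosphorylation and autophagy, and it was at 231.8 and 206.0 CPM in untreated cells, 222.8 and 199.9 in auxin cells and 328.3 and 337.9 in wild-type cells. The 4 degron libraries were intermixed, and both wild-type libraries lay above them. Its log2 difference was −0.03 (−0.20 to 0.14) after auxin. In wild-type cells it was −1.51 with scaling to the mitochondrial mRNAs and 0.60 on TMM scaling (SE 0.07, edgeR adjusted p = 1.58e-05). Phlda3, which encodes a pleckstrin homology protein that keeps the survival kinase Akt from the membrane, went the other way. It was at 115.7 and 106.0 CPM in untreated cells, 116.7 and 130.6 in auxin cells, and 80.41 and 74.5 in wild-type cells. Both auxin libraries were above both untreated ones, the nearest pair by about 1 CPM, and the difference of 0.18 (0.01 to 0.34) had an adjusted p of 0.211 (edgeR, Benjamini-Hochberg). Without untreated replicate 1 the Phlda3 difference was 0.24 and passed (edgeR, adjusted p = 0.0123). Wild-type Phlda3 was lower by −0.52 (SE 0.07, adjusted p = 8.17e-05, edgeR). The genes lie on chromosome 4 (Trp53inp1, 11156431 to 11174379, plus strand) and chromosome 1 (Phlda3, 135766119 to 135769136, plus strand).

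Zmat3 (chromosome 3, 32334792 to 32366014, minus strand) encodes a zinc finger protein that binds AU-rich RNA and acts on splicing and mRNA stability downstream of p53. It was at 190.1 and 184.8 CPM in untreated cells, 162.0 and 168.9 in auxin cells and 233.1 and 231.3 in wild-type cells. No 2 of the 3 groups overlapped. The auxin difference of −0.16 (−0.30 to −0.02) still missed the threshold after adjustment (edgeR, Benjamini-Hochberg adjusted p = 0.190). In wild-type cells Zmat3 was higher by 0.30 on TMM scaling (SE 0.06, edgeR adjusted p = 0.000881). With scaling to the mitochondrial mRNAs it was at −1.80.

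Counting all members for the auxin comparison, edgeR called 0 of 10, against 677 of the 16128 genes tested (4.20%), of which 413 were higher (2.56%) and 264 lower (1.64%). DESeq2 also called 0 of the members, and 3 (Cdkn1a, Zmat3 and Phlda3) had an unadjusted p under 0.05 in edgeR, as did 20.1% of all genes tested. Untreated and auxin libraries did not overlap for 4 members (Cdkn1a and Phlda3 higher, Trp53 and Zmat3 lower) and for 50.8% of all genes. The median absolute log2 difference of the members was 0.08, beside 0.14 over all genes tested. In this fit with TMM scaling, every member's 95% interval lay within 1.5-fold of no change, with bounds from 0.811 to 1.38-fold. These bounds do not carry over to other settings. Mdm2 was at −0.26 (SE 0.18) with scaling to the mitochondrial mRNAs, and Btg2 was at 0.44 without untreated replicate 1. By comparison, 247 genes (1.53%) were called with an absolute log2 difference over 1. Without untreated replicate 1, edgeR called 3 members higher (Cdkn1a, Phlda3 and Btg2), and without untreated replicate 2 it called 1 lower, Mdm2 (−0.20, adjusted p = 0.0369), each time with the spread taken from the auxin pair. Those fits called 1394 and 1330 of 16876 genes higher and lower, and 608 and 506 of 16874. All values are relative to the rest of the library, and a shift common to the whole mRNA pool leaves no trace in them. Polr2a, which encodes RPB1, the degraded subunit, was higher in auxin cells by 0.57 (SE 0.07, edgeR adjusted p = 0.00117), from 457 ± 7.32 to 670 ± 25.6 CPM (n = 2 each). Polr2a was not called without auxin replicate 2 (0.53, edgeR adjusted p = 0.0515) or with scaling to the mitochondrial mRNAs (0.40, 0.279). The degron acts on the RPB1 protein, so its mRNA does not check the labels.

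**Figure D2:**
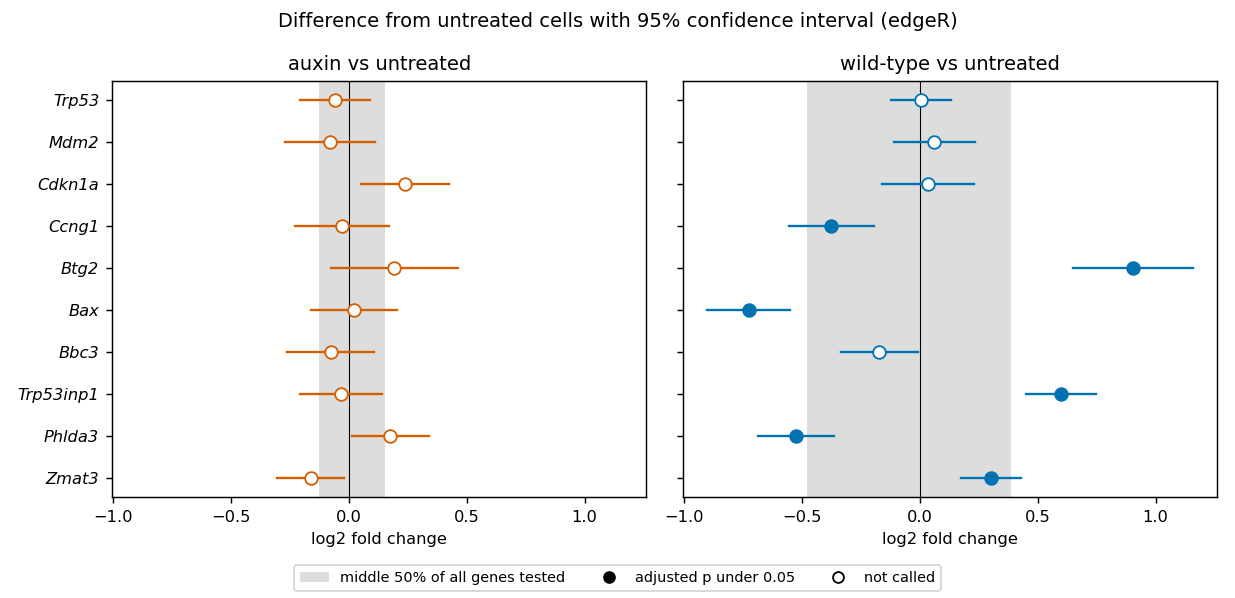
Log2 fold change of each member with its 95% confidence interval (x axis) after auxin (left) and in wild-type cells (right), both against untreated cells, with filled points for members called by edgeR and a grey band for the middle 50% of all genes tested. No point is filled on the left, where estimates run from −0.16 to 0.24; on the right 6 are filled, 3 on each side of 0 (all 10 are below 0 when libraries are scaled to the mitochondrial mRNAs).

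In the wild-type comparison, which shares the untreated libraries with the auxin comparison, 6 of 10 members were called, close to the share of all genes tested (60.6%, 9555 of 15778). Btg2, Trp53inp1 and Zmat3 were higher and Bax, Phlda3 and Ccng1 lower with TMM scaling, beside 29.9% of all genes higher and 30.7% lower, but all 10 members were lower with scaling to the mitochondrial mRNAs. The mitochondrial mRNAs made up 1.5003 to 1.5298% of counts in wild-type libraries and 0.341 to 0.441% in the 4 degron libraries, and that scaling moved the median gene by −2.09, so that differences are given relative to the bulk of polyadenylated RNA. No member passed a log2 difference of 1, which 18.1% of all genes did, and the groups did not overlap for 7 members and for 81.0% of all genes. The median absolute difference of the members was 0.34 on the log2 scale, beside 0.43 over all genes. Which members were called changed without untreated replicate 1, on both sides of 0. Mdm2 and Cdkn1a were then each at 0.19 and Bbc3 was at −0.23.

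Sums of cell type markers also differed in this comparison. The 12 feeder fibroblast markers summed to 324 and 338.7 CPM in untreated, 351.6 and 394.2 in auxin, and 195.6 and 197.3 in wild-type libraries. Acta2, the marker with the most counts in untreated libraries, weighed heavily in these sums. It had 1949 and 1823 counts in untreated and 691 and 627 in wild-type libraries. In the wild-type comparison 6 of the 9 tested were lower and 1 higher (Postn, 1.07) on TMM scaling, the one scaling used for this list, and in the auxin comparison 1 of 10 tested, Col1a2, was higher. Over all genes tested, 30.7% were lower and 29.9% higher in the wild-type comparison, and 1.64% lower and 2.56% higher after auxin. Col1a1 (0.01) and Col3a1 (0.36) were not called in the wild-type comparison, and the fibroblast proteoglycan genes Lum and Dcn were at 0 to 4 counts in every library. Summed mESC markers ran from 4390 to 4956 CPM in untreated, 3695 to 3976 in auxin and 7353 to 7461 in wild-type libraries. On TMM scaling 4 of the 10 were lower after auxin (Sox2 −0.78, Zfp42 −0.65, Nanog −0.58 and Esrrb −0.54) and none higher, beside 1.64% and 2.56% of all genes. In wild-type cells 6 were higher and 1 lower, beside 29.9% and 30.7% of all genes. The part of feeder RNA and of mESC state in the members' differences was not tested, and culture or preparation date of the wild-type libraries, deposited in a table of their own, cannot be told apart from genotype.

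The spread between replicates bears directly on the members. Between the untreated libraries, replicate 1 exceeded replicate 2 by 0.46 for Btg2, 0.30 for Cdkn1a, 0.28 for Ccng1 and 0.25 for Mdm2 on the log2 scale, whereas Bax was lower in replicate 1 by −0.27. Over genes averaging 100 counts or more, the 5th to 95th percentile of this difference ran from −0.29 to 0.31, so that Btg2 lay outside and the others near its edges. In auxin cells Bbc3 (−0.25) was the member outside the range of all genes, −0.22 to 0.21. In wild-type cells all 10 members fell between −0.13 and 0.11, inside the range of −0.21 to 0.22.

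**Figure D3:**
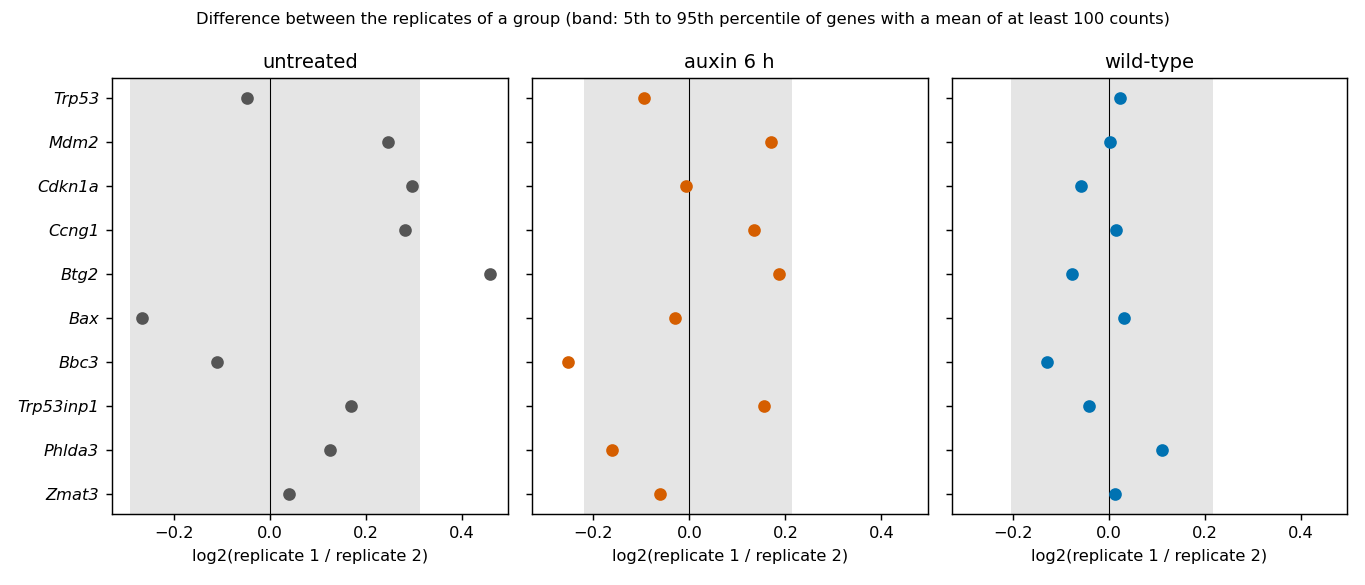
Log2 ratio of replicate 1 to replicate 2 (x axis) for each member in untreated, auxin and wild-type cells, with a grey band from the 5th to the 95th percentile of genes averaging 100 counts or more. Untreated Btg2 (0.46) and auxin Bbc3 (−0.25) lie outside their bands, and the wild-type points lie close to 0.

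Beyond the core members, 98 further genes of the p53 pathway were in the table and 96 were tested. After auxin 5 of them were called (5.21%), close to the 4.20% of all genes. Tob1, an antiproliferative relative of Btg2, was higher by 0.87 (SE 0.09, edgeR adjusted p = 0.000284), from 24.4 ± 0.786 to 44.1 ± 2.53 CPM (n = 2). The lower ones were Plk3, a stress-responsive polo-like kinase (−0.45, 132 ± 0.506 to 95.3 ± 0.896 CPM), the secreted stress cytokine Gdf15 (−0.43), the mitotic kinase Aurka (−0.36) and the BH3-only gene Bid (−0.32), with adjusted p-values of 0.00282, 0.0262, 0.0192 and 0.0361 by edgeR. With scaling to the mitochondrial mRNAs none of the pathway genes was called lower, and without auxin replicate 1 or without auxin replicate 2 Plk3 alone was. Gdf15 and Bid were not called by DESeq2 (adjusted p = 0.0959 and 0.212), and with no filter Plk3 was again the one pathway gene called lower. Without untreated replicate 1, 6 pathway genes were higher and 23 lower, beside 1394 and 1330 of the 16876 genes tested in that fit, and without untreated replicate 2, 2 and 9, beside 608 and 506 of 16874. Exons of Tctex1d4 overlap those of Plk3, and exons of Bcl2l13 those of Bid, on the opposite strand.

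The lists fared as follows after auxin, on TMM scaling. Of 20 regulators of p53, 0 were called by edgeR, with 5 at an unadjusted p under 0.05, and Mdm4, the Mdm2 partner that masks the p53 activation domain, differed by −0.18 (adjusted p = 0.162, edgeR). Arrest targets gave 1 of 9 (Plk3), apoptosis targets 1 of 13 (Bid), repair targets 0 of 10, metabolic targets 0 of 12, other targets 2 of 15 (Tob1 and Gdf15), and genes repressed through p21 and the DREAM complex 1 of 16 (Aurka). Repair targets also had 0 at an unadjusted p under 0.05 and metabolic targets 4. Over all genes tested, 4.20% were called and 20.1% had an unadjusted p under 0.05 in edgeR. List medians ran from −0.20 (the p53 relative Trp73 alone) to 0.13 (arrest targets), with −0.10 for the genes repressed through p21 and −0.00 for all genes. Trp63 was at 0 to 2 counts and Sco2 at 0 counts in each library, and neither was tested. Pmaip1 (NOXA, a BH3-only protein), Ppm1d (the phosphatase that resets p53 signalling), Sesn2 and Perp differed by 0.06, −0.09, −0.16 and 0.18. None of them was called with all 4 libraries, and Gadd45a differed by −0.22 (adjusted p = 0.233, edgeR). Perp was at 0.39 without untreated replicate 1 and at −0.02 without untreated replicate 2. Mdm4 was at −0.25 without untreated replicate 1. Gadd45a was at −0.037 without untreated replicate 1 and at −0.39 without untreated replicate 2, where it was called (edgeR adjusted p = 2.84e-05).

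In wild-type cells 66 of the 96 pathway genes were called (68.8%, beside 60.6% of all genes), 50 of them higher and 16 lower with TMM scaling, while all 96 were lower with scaling to the mitochondrial mRNAs. Genes repressed through p21 and the DREAM complex, which drive mitosis and DNA replication, were higher in 14 of 16 cases on TMM scaling (0 of 16 with the mitochondrial scaling), with a median of 0.71. Over all genes tested, 29.9% were higher and 30.7% lower on TMM scaling. Ccnb1 was at 269 ± 15.2 CPM in untreated and 540 ± 9.15 in wild-type cells (1.00, SE 0.06), and Aurka (0.97), Cdk1 (0.94) and Ccna2 (0.91) were close behind, with edgeR adjusted p-values of 1.83e-07 to 2.58e-07. Cdkn1a, which encodes p21 and is not itself on this list, differed by 0.04 and was not called in the same comparison. Without untreated replicate 1 it differed by 0.19. Whether p21 has a part in the differences of the list was not tested. Among the 20 regulators 11 were higher and 3 lower on TMM scaling, beside those shares of all genes. Higher ones included Mdm4 (0.77), the damage kinase gene Chek2 (0.85) and the deacetylase gene Sirt1 (0.73).

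Among the targets of p53, genes were called in both directions in wild-type cells on TMM scaling. Called genes outside the naming rule given below, such as Fas (−1.84) and Gls2 (0.94), are not listed next. Lower were Plk3 (−1.95, from 132 ± 0.506 to 34.4 ± 2.01 CPM), Gdf15 (−1.45), the peroxidase gene Gpx1 (−1.32), Gadd45g (−1.07), Perp (−1.02), Sesn2 (−0.82), Plk2 (−0.57), Bid (−0.43) and Gadd45a (−0.26), of which Gadd45a was not called without untreated replicate 1 (−0.08) or without either wild-type library. Higher were the translesion polymerase gene Polh (1.33, from 15.7 ± 0.012 to 39.7 ± 0.533 CPM), Trp53i11 (1.00), Tob1 (0.89), Ei24 (0.89), Sesn1 (0.88), Pml (0.84), Gtse1 (0.75), Rrm2b (0.57) and Pmaip1 (0.56), as was the p53 relative Trp73 (0.88), though all 10 were lower with scaling to the mitochondrial mRNAs. Sesn1 and Sesn2, which both encode sestrins, thus lay on opposite sides of 0. Of the arrest targets 2 were higher and 3 lower of 9, of the apoptosis targets 5 and 4 of 13, of the repair targets 4 and 1 of 10, of the metabolic targets 6 and 2 of 12, and of the other targets 7 and 3 of 15, beside 29.9% higher and 30.7% lower over all genes. Ppm1d differed by 0.03 and Polr2a by 0.10, and neither was called (edgeR adjusted p = 0.737 and 0.172), although Polr2a was without untreated replicate 1 (0.11, adjusted p = 0.0156).

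**Figure D4:**
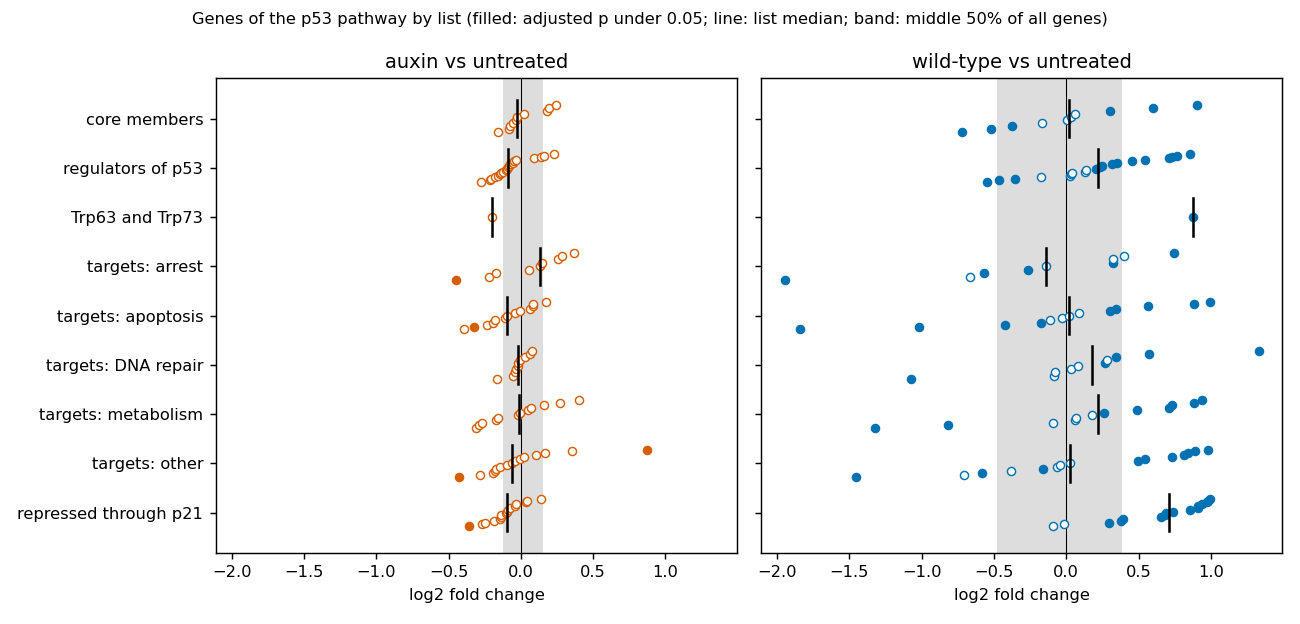
Log2 fold change (x axis) of the core members and of each list of p53 pathway genes (y axis), after auxin (left) and in wild-type cells (right) against untreated cells on TMM scaling, with filled points for genes called by edgeR, a line at each list median and a grey band for the middle 50% of all genes tested. After auxin few points are filled and list medians lie near 0; in wild-type cells the genes repressed through p21 have the highest median of the lists with more than 1 gene tested, 0.71, although with scaling to the mitochondrial mRNAs every pathway gene falls below 0.

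Patterns over the 6 libraries were compared by the Euclidean distance between centred log2(CPM + 1) profiles, over 10969 genes averaging 100 counts or more. Profiles were centred but not scaled, so that genes that vary little lie close to each other whatever their pattern. Closest to Trp53, which varied little, were Riok1 (0.0433), Paip2 (0.0456) and Tnip2 (0.0468), where the median distance was 0.489. Polk, a translesion polymerase gene on the repair list, was closest to Mdm2 (0.0543), ahead of Ehbp1 and Vamp3. Cdkn1a lay nearest to Gm608 (0.0692), Fam102b and Snx9. With 6 libraries that share their groups, these distances are descriptions and carry no test.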

How the data were processed

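The authors sequenced polyA RNA in pairs of reads, aligned it to mm10 with HISAT2 2.1.0 and, per the labels and the paper's methods, used Salmon and HTSeq to count reads per GENCODE gene. The annotation release and the strand setting are not given in the sources used here. The deposited values are whole-number counts, not normalized, of 39017 genes, with degron and wild-type libraries in separate tables that were joined by gene ID. The tables also hold the authors' own comparison columns (fold changes and p-values from DESeq2), which were not used, and 2 columns of per-sample counts that match no sample, also not used.

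Groups follow the labels. Genes with enough counts (filterByExpr, minimum count 10) were scaled by TMM and tested by edgeR 4.0.16 (R 4.3.3) quasi-likelihood F-tests on the 4 libraries of each comparison, with Benjamini-Hochberg adjustment over all genes tested and a threshold of 0.05. A called gene is one past it. Fold changes use a prior count of 0.125, and intervals cover 95%. The scripts were tested on simulated data. CPM levels use TMM scaling over all 6 libraries. Gene positions, merged exons and shared 100-base stretches come from GENCODE vM21, which held 37607 of the IDs, and promoters from RefSeq. DESeq2 1.42.0, other scalings and filters, a replicate block, a joint fit of the 3 groups and omission of each library were tried as alternatives. Total counts were 14094022 to 15358714 per library. With 2 libraries per group, the fits gave standard errors of 0.07 to 0.13 (log2) for members after auxin and 0.06 to 0.12 in wild-type cells.

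The members and the gene lists were chosen with earlier results of these data known. Named from each list were up to 3 called genes with the smallest p-value per comparison, and always Mdm4, Pmaip1, Ppm1d, Sesn2, Gdf15, Perp, Trp63, Trp73, Gadd45a and Polr2a.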

Additional observations from a re-analysis of the deposited data

How the results depend on the processing

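After auxin, the counts of genes over the whole table depended on the settings, while the members stayed uncalled in most of them. All genes higher and lower, 413 and 264 as reported, were 128 and 108 with DESeq2, 167 and 52 with scaling to the mitochondrial mRNAs, 43 and 12 with no filter, and 246 higher with at least 10 counts in every library, and 668 were lower with all 3 groups in one fit. Pathway genes lower, 4 as reported, were 2 with DESeq2, 0 with mitochondrial scaling, 1 with no filter and 11 with all 3 groups in one fit. Leaving out each library gave 142 to 1394 genes higher and 35 to 1330 lower, 0 to 3 members higher and 0 to 1 lower, and 1 to 6 pathway genes higher and 1 to 23 lower. The highest counts came without untreated replicate 1, except for the member called lower, Mdm2, which came without untreated replicate 2. The counts higher and lower were 608 and 506 without untreated replicate 2, 149 and 35 without auxin replicate 1 and 142 and 37 without auxin replicate 2. In these fits the group with both libraries gives the spread, and the lone library is assumed to vary alike. In the wild-type comparison 3 to 5 members were higher.

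With the replicate number as a block (replicate block), auxin gave 1081 genes higher and 849 lower, 12 pathway genes lower and 1 member higher, Cdkn1a (0.25, adjusted p = 0.00485 by edgeR). The numbers name replicates in the labels and nothing more, and the deviations of same-numbered libraries correlated at 0.11 (untreated and auxin) and −0.06 (untreated and wild-type) across 10969 genes, with 2 pairs each, so the block was not taken as pairing.

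Scaling to the mitochondrial mRNAs moved the median gene by −0.17 after auxin and −2.09 in wild-type cells. Wild-type counts became 73 genes higher and 15235 lower, 0 and 10 members and 0 and 96 pathway genes. Signs turned after auxin for Bax (−0.14), Phlda3 (−0.0014), Pmaip1 (−0.11), Perp (−0.0072), Plk2 (−0.045), Rrm2b (−0.11), Gpx1 (−0.013) and Ccna2 (−0.13). In wild-type cells they turned for Trp53 (−2.09), Mdm2 (−2.05), Cdkn1a (−2.07), Zmat3 (−1.80), Trp53inp1 (−1.51), Btg2 (−1.21), Mdm4 (−1.33), Pmaip1 (−1.54), Ppm1d (−2.06), Trp73 (−1.21), Polr2a (−2.00), Sirt1 (−1.37), Chek2 (−1.23), Gtse1 (−1.35), Ei24 (−1.21), Trp53i11 (−1.08), Polh (−0.76), Rrm2b (−1.53), Sesn1 (−1.21), Tob1 (−1.21), Pml (−1.26), Aurka (−1.12), Ccnb1 (−1.10), Cdk1 (−1.16) and Ccna2 (−1.19).

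Values near 0 turned sign when libraries were scaled by their totals alone (Gadd45g after auxin 0.012, and in wild-type cells Trp53 −0.053, Cdkn1a −0.024 and Ppm1d −0.025) and with at least 10 counts in every library (Gadd45g 0.0039 and Trp53 −0.013). Leaving out each library in turn gave, after auxin, ranges of −0.20 to 0.043 for Mdm2, −0.17 to 0.12 for Ccng1, −0.21 to 0.040 for Bbc3, −0.11 to 0.16 for Bax, −0.12 to 0.051 for Trp53inp1, −0.022 to 0.44 for Btg2, −0.0097 to 0.13 for Pmaip1, −0.020 to 0.39 for Perp, −0.045 to 0.030 for Gadd45g and −0.10 to 0.23 for Rrm2b. In wild-type cells the ranges were −0.019 to 0.026 for Trp53, −0.058 to 0.19 for Mdm2 and −0.11 to 0.19 for Cdkn1a. The cause of these shifts was not tested. Depth limits the low genes such as Trp73, while each member had at least 484 counts in every library.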
